A study of Caenorhabditis elegans with 8 samples.

Results

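The genes described here encode the SWEET sugar transporters (*swt* genes) of *Caenorhabditis elegans*, together with *fgt-1*, the facilitated glucose transporter of the worm. The members were chosen by gene name, and the family was taken up because *swt-3* stood out in an earlier comparison of the same samples. The values that selected it were its levels in atracurium-treated worms against water vehicle worms, so for *swt-3* this difference is given as a description and supports nothing. The 7 members, of 17521 genes in the table, were *swt-1*, *swt-3*, *swt-4*, *swt-5*, *swt-6*, *swt-7* and *fgt-1*. All 7 passed the authors' filter on low counts, and *swt-2*, another annotated SWEET gene, was not analysed here.

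Sugars cross cell membranes through carrier proteins. SWEET proteins are small membrane carriers that let sugars move down their concentration gradient, and they are best known from plants, where they release sugars from cells. Animals have them too, and the worm carries a larger set than humans. FGT-1 belongs to the other main group of passive carriers, the family of the human glucose transporters (GLUT).

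The atracurium group held 4 samples of worms of the wild-type strain N2, kept for 24 h from the last larval stage on plates with 50 μM atracurium besylate, a muscle relaxant that blocks the acetylcholine receptor of the neuromuscular junction. The water vehicle group held 4 samples kept for the same time on plates without the drug. All plates carried 5-fluorouracil, which keeps progeny from developing, and each sample was about 1000 whole worms collected at day 1 of adulthood. The comparison addressed which transcripts differ after atracurium, in a study of the drug and the transcription factor DAF-16, the FOXO protein of the worm.

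The atracurium libraries held between 30836643 and 35947045 reads on genes, and the water vehicle libraries between 27922986 and 60015200. Atracurium replicates 2 and 4 stood apart, with 615 and 603 genes at 0 reads, against 75 to 308 in the other samples. Over all genes, 0.177% were called at an adjusted p of 0.05 in either direction. Of the markers of tissues, 2 of 6 pharynx genes (*myo-1* and *myo-2*, both myosin heavy chains) were called as higher with atracurium and no other marker was called. Their log2 fold changes were 0.49 and 0.46, and 0.37 and 0.34 once a trend with gene length that ran through all genes was removed, which ended both calls (adjusted p = 0.124 and 0.132 by limma-trend). With 1 sample left out the log2 fold changes were 0.45 to 0.53 and 0.41 to 0.50, and the adjusted p reached 0.0709 and 0.138. The summed level of the pharynx genes was 111.8 to 130.6 CPM (reads on a gene per 1000000 reads of the scaled library) with atracurium and 91.8 to 94.4 in the water vehicle. The summed level of 10 sperm genes was 29.8 to 46.0 CPM with atracurium and 48.0 to 56.9 in the water vehicle, and 9 of them had lower means with atracurium. Body wall muscle genes summed to 2529 to 2819 CPM with atracurium and 2177 to 2485 in the water vehicle. In the intestine, neuron, hypodermis, oocyte and germ line lists the sums overlapped between the groups. The hypodermis sum rested mainly on its most abundant gene. Of the 6 hypodermis genes, 5 had lower means with atracurium and 1 a higher mean, with a median log2 fold change of −0.28. Means were higher with atracurium for 7 of 8 intestine, 6 of 8 neuron, 8 of 10 oocyte and 7 of 7 germ line genes. None of the 61 markers in the table, of 63 listed, was at 0 reads in any sample. The part that tissue make-up has in the results on transporters was not tested. In whole worms, fewer cells of a type and less RNA per cell cannot be told apart.

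*swt-3* was the member that differed most between the groups. Its level, as log2 CPM, was 4.52, 4.78, 4.54 and 4.59 in atracurium replicates 1 to 4, against 5.57, 5.37, 5.49 and 5.14 in water vehicle replicates 1 to 4. Every atracurium sample lay below every water vehicle sample, and the closest pair were atracurium replicate 2 and water vehicle replicate 4. These values rested on 722 to 925 reads per atracurium sample and 1024 to 2548 per water vehicle sample. Counting error was at most 0.0537 on the log2 scale in any one sample. Atracurium samples averaged 4.61 ± 0.12 and water vehicle samples 5.39 ± 0.19 (SD, n = 4 each). The difference of −0.78 on the log2 scale (standard error 0.10) corresponds to 0.581 times the water vehicle level with a 95% interval of 0.502 to 0.672. *swt-3* (WBGene00007384) lies on the minus strand of chromosome IV of WBcel235, from 10778985 to 10780683. It has a single annotated transcript of 3 exons and no annotated gene overlaps it.

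Of the other *swt* genes, *swt-6* came nearest to the pattern of *swt-3*. Its log2 CPM was 2.68, 2.78, 3.28 and 3.05 in the atracurium samples, against 3.33, 3.55, 3.31 and 3.05 in the water vehicle samples. The groups overlapped, because atracurium replicate 3 lay above water vehicle replicate 4. The difference of −0.36 on the log2 scale (standard error 0.15, 95% interval −0.69 to −0.04) did not pass the test over all genes (adjusted p = 0.390 by limma-trend, unadjusted p = 0.0297). *swt-6* is short, with 754 nt of exons, and its difference was −0.24 on the log2 scale once the length trend was removed. Without atracurium replicate 1 it was −0.28 and without atracurium replicate 3 it was −0.48. *swt-6* (WBGene00011190) lies on the plus strand of chromosome V, from 13954356 to 13956176, where it overlaps the gene R10D12.10 on the opposite strand.

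**Figure D1:**
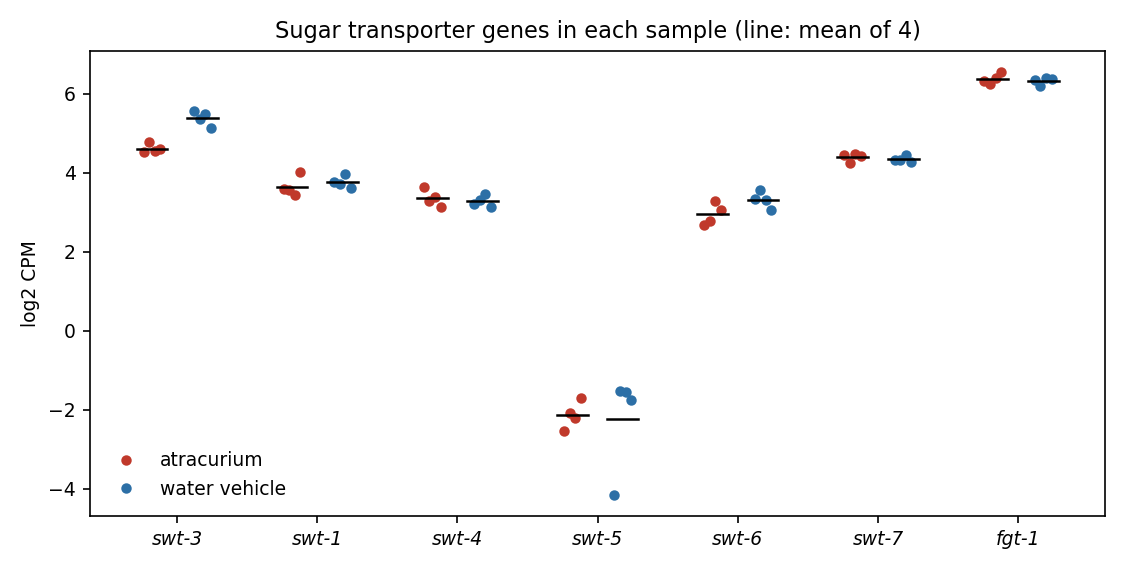
Level of each transporter gene in each sample, as log2 CPM on the vertical axis, with atracurium samples in red on the left and water vehicle samples in blue on the right of each pair and a line at the mean of 4 samples. The red points of *swt-3* lie at 4.52 to 4.78 and its blue points at 5.14 to 5.57, while the groups of the other 6 genes overlap. The single blue point at −4.15 is the water vehicle sample with 0 reads on *swt-5*.

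The remaining *swt* genes and *fgt-1* overlapped between the groups. *swt-1* had a log2 CPM of 3.58, 3.55, 3.44 and 4.02 with atracurium, against 3.77, 3.71, 3.96 and 3.60 in the water vehicle. Atracurium replicate 4 lay above all other samples. The groups differed by −0.11 on the log2 scale (95% interval −0.39 to 0.17, adjusted p = 0.733 by limma-trend), by −0.24 without atracurium replicate 4, by −0.044 without atracurium replicate 3 and by −0.047 without water vehicle replicate 3. *swt-1* (WBGene00019300) lies on the plus strand of chromosome IV, from 307505 to 311236, far from *swt-3* on the same chromosome.

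*swt-4* had a log2 CPM of 3.64, 3.30, 3.39 and 3.13 with atracurium, against 3.22, 3.32, 3.46 and 3.14 in the water vehicle. The atracurium samples spanned the whole range of the water vehicle samples. Their difference on the log2 scale was 0.08 (95% interval −0.19 to 0.35, adjusted p = 0.813 by limma-trend), and it was −0.01 without atracurium replicate 1, the highest sample. *swt-4* (WBGene00012647) lies on the minus strand of chromosome III, from 10625930 to 10629143, and overlaps *hpr-9* on the opposite strand.

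*swt-7* varied least of the *swt* genes. It had a log2 CPM of 4.46, 4.26, 4.48 and 4.42 with atracurium, against 4.33, 4.32, 4.45 and 4.27 in the water vehicle. The fitted difference was 0.06 on the log2 scale (95% interval −0.11 to 0.24, adjusted p = 0.765 by limma-trend), so a change of the size seen in *swt-3* lay well outside the interval. Once the length trend was removed it differed by 0.17, with an adjusted p of 0.536 by limma-trend. *swt-7* (WBGene00019645) lies on the minus strand of chromosome V, from 5029319 to 5030815.

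*swt-5* was barely detected. It had 4, 6, 5 and 8 reads in the atracurium samples, against 0, 18, 8 and 7 reads in the water vehicle samples. The summed reads, scaled to library size, gave a ratio of 0.804 of atracurium over water vehicle, with a 95% exact binomial interval of 0.451 to 1.41 that covers counting error only. The 0 in water vehicle replicate 1 allows up to 3 reads. A difference between the groups was not detectable at this depth. Its fitted log2 fold change, 0.10 (95% interval −1.15 to 1.35, adjusted p = 0.958 by limma-trend), depends on the prior count and took the opposite sign, −0.54, without water vehicle replicate 1. *swt-5* (WBGene00010594) lies on the plus strand of chromosome V, from 9501401 to 9504580, and overlaps a tRNA gene on the same strand and a noncoding RNA gene on the opposite strand.

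The glucose transporter gene *fgt-1* had a log2 CPM of 6.33, 6.25, 6.39 and 6.56 with atracurium, against 6.35, 6.19, 6.40 and 6.36 in the water vehicle. Atracurium replicate 4 was the highest sample and water vehicle replicate 2 the lowest. Between the groups it differed by 0.05 on the log2 scale (95% interval −0.11 to 0.21, adjusted p = 0.797 by limma-trend). With 2360 to 4509 reads per sample it was the most deeply counted member, with a counting error of 0.02 to 0.03 on the log2 scale. *fgt-1* (WBGene00019207), named *fdgt-1* in the newer annotation, lies on the plus strand of chromosome II, from 1504566 to 1509831, and a noncoding RNA gene overlaps it on the same strand.

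At an adjusted p of 0.05 over all genes, 1 of the 7 members was called, *swt-3*, against 0.177% of the 17521 genes. Since this contrast led to the choice of the family, nothing is read from that count. Likewise 1 of 7, *swt-3*, had atracurium samples that all lay below the water vehicle samples, against 3.75% of all genes. At an unadjusted p of 0.05, 2 of 7 passed, *swt-3* and *swt-6*, against 11.5% of all genes. Nothing is read from these counts either, because both hold *swt-3*. The median log2 fold change was 0.05 over the 7 members and −0.01 over all genes.

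**Figure D2:**
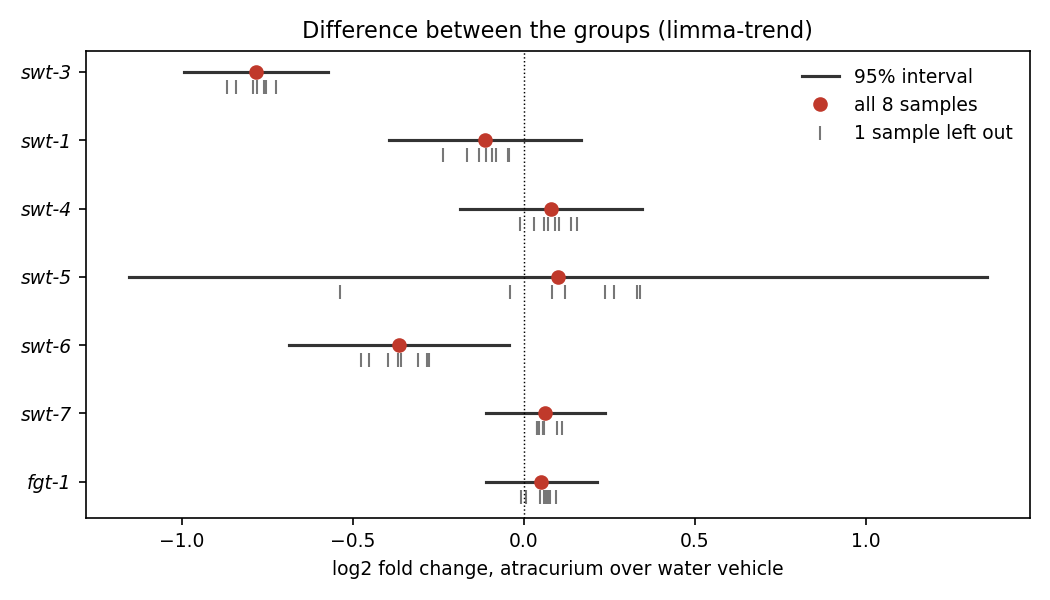
Log2 fold change of each member, atracurium over water vehicle, on the horizontal axis. Red points are the fit to all 8 samples, bars are 95% intervals from limma-trend and grey ticks below each bar are the values with 1 sample left out. For *swt-3* the ticks run from −0.87 to −0.72, while those of *swt-4*, *swt-5* and *fgt-1* fall on both sides of 0.

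Set against its paralogs within the same library, *swt-3* stood lower relative to most of them in the atracurium samples. The difference in log2 CPM between *swt-3* and the mean of the other *swt* genes was 2.16, 2.42, 2.06 and 2.01 in the atracurium samples, against 3.47, 2.70, 2.76 and 2.68 in the water vehicle samples. The mean was 2.17 ± 0.18 in atracurium samples and 2.90 ± 0.38 in water vehicle samples (SD, n = 4 each), a difference of −0.74. Water vehicle replicate 1 stood highest and held 0 reads on *swt-5*, and the difference was −0.55 without it. With the 4 paralogs above a log2 CPM of 0 in every sample, leaving out *swt-5*, the difference between the groups was −0.70. The value lay between 0.892 and 1.31 in the atracurium samples and between 1.63 and 1.91 in the water vehicle samples. No test of this difference was made, because *swt-3* was picked on its own difference.

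Taken pair by pair, *swt-3* minus *swt-7* was 0.06 to 0.52 with atracurium and 0.87 to 1.24 in the water vehicle. *swt-3* minus *swt-4* was 0.89 to 1.49 with atracurium and 2.004 to 2.35 in the water vehicle. *swt-3* minus *swt-1* was 0.58 to 1.23 with atracurium and 1.53 to 1.80 in the water vehicle. None of these ranges overlapped, but *swt-3* was picked on its own difference, so this is a description. For *swt-6* they did, with 1.26 to 1.999 with atracurium and 1.82 to 2.24 in the water vehicle. For *swt-5*, with few reads, they also overlapped, with 6.31 to 7.08 with atracurium and 6.89 to 9.72 in the water vehicle. Against *fgt-1*, a carrier of another family, the difference was −1.96 to −1.47 with atracurium and −1.22 to −0.78 in the water vehicle.

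Levels can be compared between genes once they are divided by length. Per kilobase of exon, *fgt-1* was highest in both groups, with 47.9 ± 4.42 CPM per kb with atracurium and 46.2 ± 2.85 CPM per kb in the water vehicle (SD, n = 4 each, here and below). In the atracurium samples *swt-7* followed at 26.2 ± 1.77 CPM per kb and *swt-3* at 16.4 ± 1.40 CPM per kb, and their ranges did not overlap. In the water vehicle samples *swt-3* was at 28.4 ± 3.55 CPM per kb and *swt-7* at 25.02 ± 1.31 CPM per kb, and these ranges overlapped. Per kilobase of coding sequence they did not, with 33.1 to 44.6 CPM per kb for *swt-3* and 28.7 to 32.4 CPM per kb for *swt-7* in the water vehicle. *swt-6*, *swt-1* and *swt-4* formed a group of like levels, at 10.3, 10.2 and 10.1 CPM per kb with atracurium and 13.2, 10.96 and 9.53 CPM per kb in the water vehicle, where neighbours in the order overlapped. *swt-5* was far below, at 0.204 CPM per kb with atracurium and 0.238 CPM per kb in the water vehicle.

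These levels set the share of each gene in the sum over the 6 SWEET genes analysed. The sum leaves out *swt-2*, here and below. *swt-3* held 21.2%, 26.3%, 20.8% and 21.5% of the summed SWEET level per kb in atracurium replicates 1 to 4, against 35.5%, 31.4%, 32.2% and 30.8% in water vehicle replicates 1 to 4. *swt-7* held 33.5% to 37.2% with atracurium and 27.5% to 30.9% in the water vehicle. The shares of one sample add up to the whole, so a lower share of one gene raises the others. Counted as reads without division by length, *swt-3* had 30.3% to 36.6% of SWEET reads with atracurium and 42.1% to 47.3% in the water vehicle. The Wilson 95% interval of the 36.6% in atracurium replicate 2 was 34.8% to 38.5%, which covers counting error only and not the spread between samples of worms.

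The summed level of the 6 SWEET genes analysed, which leaves out *swt-2*, was 74.9 to 78.8 CPM with atracurium and 83.8 to 103.1 CPM in the water vehicle. Without *swt-3* the sum was 47.5 to 54.7 CPM with atracurium and 48.6 to 58.3 CPM in the water vehicle, and these ranges overlapped.

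**Figure D3:**
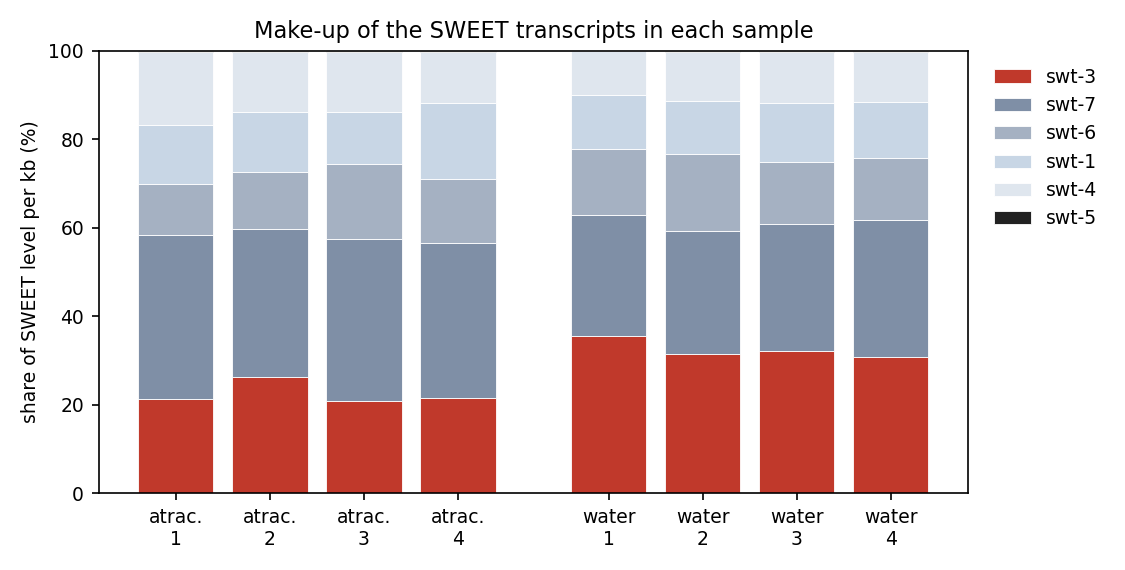
Share of the summed level per kb of exon of the 6 SWEET genes analysed, in percent, taken by each gene. Each sample is 1 stacked bar, with atracurium samples on the left and water vehicle samples on the right. The red part, *swt-3*, covers 20.8% to 26.3% of the atracurium bars and 30.8% to 35.5% of the water vehicle bars, and *swt-5*, at most 0.384%, is too thin to be seen.

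Over the 8 samples, the highest correlation of *swt-3* with another member was 0.66, with *swt-6*, and for deviations from the group means this value was 0.15. For such deviations, the correlations of *swt-3* with the other members ran from −0.43, with *swt-5*, to 0.30, with *swt-1*. The highest within-group value of any pair was 0.67, between *swt-1* and *fgt-1*, both of which were highest in atracurium replicate 4. These correlations are descriptions over 8 libraries that share their scaling.

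The genes most like *swt-3* over the 8 samples, among 12301 genes with a mean log2 CPM above 0, were *dod-24*, F22G12.3, T13F2.9, F25H9.2 and *clec-52*, with Pearson correlations of 0.998, 0.968, 0.966, 0.963 and 0.959. The name of *dod-24* stands for a gene downstream of DAF-16, *clec-52* encodes a C-type lectin, and T13F2.9 is annotated as a pseudogene. For deviations from the group means, the correlation with *swt-3* was 0.98 for *dod-24*, 0.89 for F22G12.3, 0.82 for F25H9.2, 0.71 for T13F2.9 and 0.53 for *clec-52*. These 8 points share their libraries and the difference between the groups.

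*dod-24* had a log2 CPM of 4.31, 4.55, 4.32 and 4.41 in the atracurium samples, against 5.15, 5.04, 5.08 and 4.79 in the water vehicle samples. Within each group its samples fell in the same order as those of *swt-3*. In both genes atracurium replicate 2 was the highest of its group and water vehicle replicate 4 the lowest of its group. Between the groups *dod-24* differed by −0.62 on the log2 scale (standard error 0.09). Likeness was picked out of all genes over the same samples that set *swt-3* apart, so it carries no test.

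**Figure D4:**
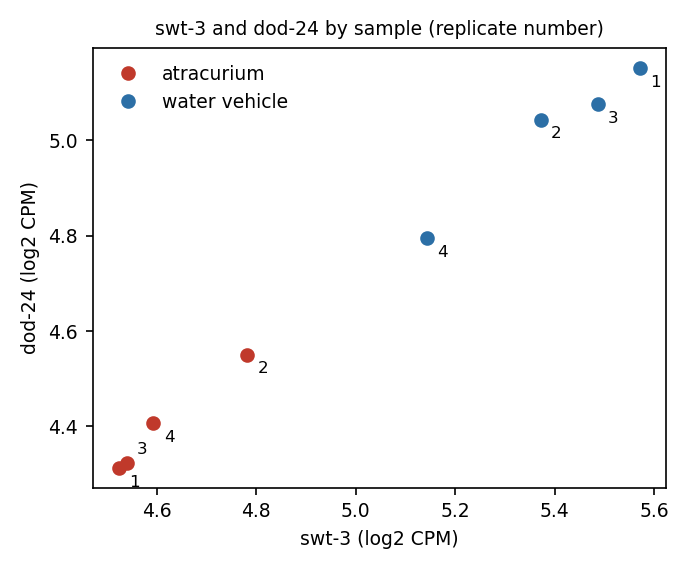
Log2 CPM of *swt-3* on the horizontal axis and of *dod-24* on the vertical axis, 1 point per sample with its replicate number, atracurium in red and water vehicle in blue. The points lie close to a line both between and within the groups, with correlations of 0.998 over the 8 samples and 0.98 for deviations from the group means.

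The genes on either side of *swt-3* in the table had log2 fold changes near 0. *inpp-1*, which ends 5073 nt before it, had a log2 fold change of 0.00 (95% interval −0.37 to 0.37). *pept-2*, a peptide transporter gene that starts 9969 nt after it, had a log2 fold change of 0.07 (95% interval −0.13 to 0.28).

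Among the other porters of sugars and related molecules, the 3 proton-coupled *myo*-inositol transporter genes were in the table and 0 of 3 were called. *hmit-1.2* had a log2 CPM of 2.68, 2.65, 2.75 and 2.86 with atracurium, against 2.28, 1.74, 2.21 and 2.14 in the water vehicle. The groups did not overlap and the atracurium samples were the higher ones, on the other side from *swt-3*. Its difference of 0.64 on the log2 scale (standard error 0.14) had an adjusted p of 0.176 (limma-trend) and an unadjusted p of 6.74e-04. *hmit-1.1* had a log2 fold change of 0.27 (standard error 0.25) and *hmit-1.3* one of −0.07. The median of the 3 was 0.27, and it was 0.08 without atracurium replicate 3 and 0.53 without atracurium replicates 2 and 4.

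The enzymes of sugar handling, taken with the *myo*-inositol porters, mostly had log2 fold changes slightly above 0. Over glycolysis, gluconeogenesis with the glyoxylate shunt, trehalose, glycogen and the *myo*-inositol porters, 1 of 41 genes was called at an adjusted p of 0.05, against 0.177% of all genes, and 12 of 41 passed an unadjusted p of 0.05, against 11.5% of all genes. Of the 41, 38 had a positive log2 fold change, where the median over all genes was −0.01. In these samples log2 fold changes ran with gene length, with a Spearman correlation of 0.423 with exonic length across 17493 genes, which are not independent replicates. After removal of this trend, the median went from 0.09 to 0.08 in glycolysis and from 0.15 to 0.12 in glycogen. It went from 0.27 to 0.22 in the *myo*-inositol porters, from 0.19 to 0.10 in gluconeogenesis with the glyoxylate shunt, and from 0.08 to −0.00 in trehalose. The part of gene length in these medians was not tested.

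In glycolysis, which breaks glucose down to pyruvate, 0 of 19 genes were called, and the median log2 fold change was 0.09. *pfk-1.1*, a phosphofructokinase gene, averaged a log2 CPM of 6.59 ± 0.06 in atracurium samples and 6.38 ± 0.11 in water vehicle samples (SD, n = 4 each). They differed by 0.21 (adjusted p = 0.306 by limma-trend). *ipgm-1*, a phosphoglycerate mutase gene, had a log2 fold change of 0.12 (adjusted p = 0.424 by limma-trend).

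In gluconeogenesis and the glyoxylate shunt, which make glucose from other carbon sources, 1 of 6 genes was called and the median log2 fold change was 0.19, or 0.10 after removal of the length trend. The called gene was *icl-1*, which encodes the glyoxylate shunt enzyme of the worm. Its log2 CPM was 8.996, 9.13, 9.02 and 9.05 with atracurium, against 8.78, 8.63, 8.77 and 8.59 in the water vehicle. *icl-1* rose by 0.36 on the log2 scale (standard error 0.06) at an adjusted p of 0.0396 (limma-trend). The call was lost without the mean-variance trend, with the replicate block, under a common median, under quantile normalization, after removal of the length trend (log2 fold change 0.28, adjusted p = 0.0828) and with any single sample other than atracurium replicate 2 left out (log2 fold change 0.32 to 0.39, adjusted p up to 0.157). *pck-1*, a phosphoenolpyruvate carboxykinase gene, had a log2 fold change of 0.24 (adjusted p = 0.254 by limma-trend).

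In trehalose metabolism, 0 of 8 genes were called and the median log2 fold change was 0.08, or −0.00 after removal of the length trend. Trehalose is the main circulating sugar of many invertebrates, and trehalases split it into glucose. The trehalase genes *tre-5* and *tre-3* had log2 fold changes of 0.51 (adjusted p = 0.310 by limma-trend) and 0.23 (adjusted p = 0.345). In glycogen metabolism 0 of 5 genes were called and the median was 0.15. *agl-1*, a debranching enzyme gene, had a log2 fold change of 0.18 (adjusted p = 0.283 by limma-trend), and *pygl-1*, the glycogen phosphorylase gene, one of 0.20 (adjusted p = 0.316).

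**Figure D5:**
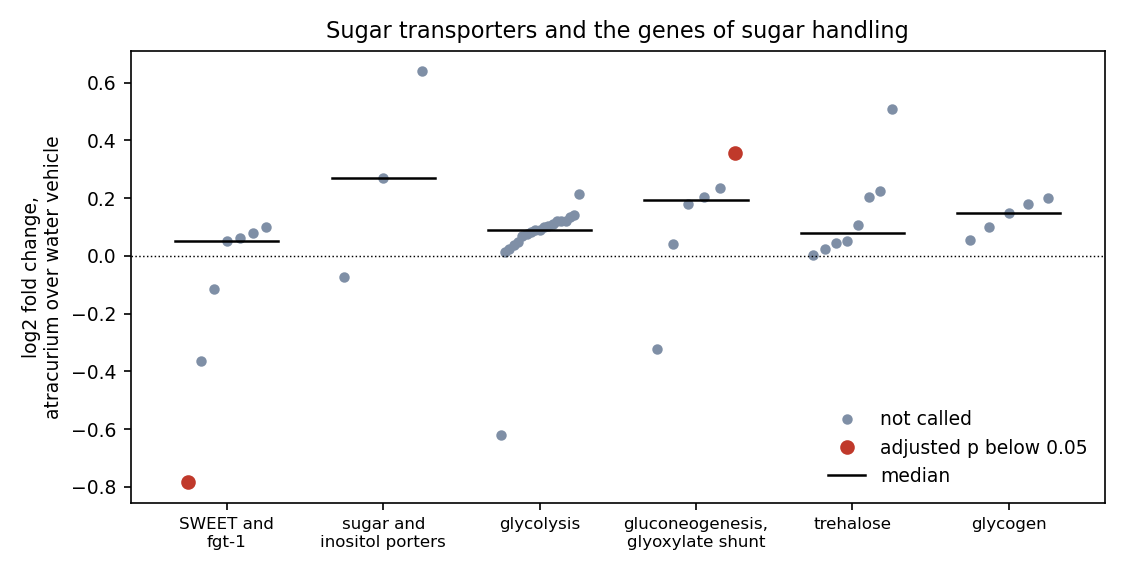
Log2 fold change, atracurium over water vehicle, of each transporter gene and of each gene in 5 lists of sugar handling, 1 point per gene, with a line at the median and genes at an adjusted p below 0.05 in red. Of the red points, *swt-3* lies at −0.78 and *icl-1* at 0.36, and the medians of the 5 lists lie between 0.08 and 0.27.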

How the data were processed

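Per the labels and the study's methods, polyadenylated RNA of whole worms was sequenced with a kit that keeps read direction. The authors trimmed reads with Trimmomatic 0.32, aligned them with HISAT2 2.1.0 to WBcel235 (Ensembl release 91), counted them by direction with HTSeq 0.11.0 and dropped genes unless 3 or more samples had over 2 counts. The deposited values are log2 CPM, scaled by the authors with TMM factors in edgeR 3.26.8, with a prior count of 2 reads on average. The column names say CPM, but values run down to −4.15, the value of 0 reads. Whole reads were recovered, with 100% of values within 0.1 of a whole number.

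Groups were compared by limma-trend (limma 3.58.1, R 4.3.3, two-sided, Benjamini-Hochberg over 17521 genes) on the log2 scale. The script was run on simulated counts that had no trend with gene length and no deviating samples. That run does not bear on the calls in these data. Low genes depend on the prior count. Recovered reads went to limma-voom, the method of the study, as an alternative. Of 63 tissue markers, 61 were in the table. The labels give 4 samples per group, each of its own worms. Shares have Wilson and read ratios exact binomial 95% intervals. Reads carry no molecular identifiers, so intervals and the limit of 3 reads for a count of 0 cover counting error only. Positions and lengths came from Ensembl release 115 of WBcel235, which held 17493 of the genes.

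Named are the members, the 5 genes most like *swt-3* by Pearson correlation, its 2 neighbours, and from each pathway list the called genes and the 2 with the smallest p. Other genes named are *hmit-1.3* and called markers, chosen after their values were seen. Members and lists were chosen with earlier results of these data known. Alternatives were no mean-variance trend, robust moderation, limma-voom, a common median, quantile normalization, a filter on low genes, other prior counts, sample weights, removal of the length trend, the replicate block, and samples left out.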

Additional observations from a re-analysis of the deposited data

Results flagged for a closer look

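Of 28 groups of 4 values checked for a sample far from the rest, 4 had such a sample. Chance gives about 1 in 20 for independent values, but these checks reuse the same reads, so no excess is read from this count. In the water vehicle, replicate 1 had a log2 CPM of −4.15 for *swt-5*, against −1.75 to −1.52 in the other replicates, because it held 0 reads on this gene. For the same reason its *swt-5* share of the SWEET level per kb was 0%, against 0.355% to 0.384% in the other replicates. The same sample had the highest difference between *swt-3* and the mean of the other *swt* genes, 3.47, against 2.68 to 2.76. In the atracurium group, replicate 2 had the highest share of *swt-3* in the SWEET level per kb, 26.3%, against 20.8% to 21.5% in the other replicates. This library also had the most genes at 0 reads, 615, and the part of this in the share was not tested.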

How the results depend on the processing

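The log2 fold change of *swt-3* kept its sign under all 20 alternatives, from −0.87 to −0.72. Since *swt-3* was picked on this difference, that range is a description. The fit without a mean-variance trend gave the same −0.78 and called 0 members. Without atracurium replicates 2 and 4, an alternative added after seeing the data, it was −0.86. No other member was called under any alternative. *swt-5* reversed to −0.016 with a prior count of 5, to −0.20 with sample weights and to −0.14 without atracurium replicates 2 and 4. With single samples left out, the log2 fold change ran from −0.54 to 0.34 for *swt-5*, from −0.011 to 0.16 for *swt-4* and from −0.0067 to 0.10 for *fgt-1*, which all took the other sign in at least 1 case. The 31 genes called over the table became 16 without the trend, 139 with sample weights, 134 without atracurium replicates 2 and 4, and between 17 (without atracurium replicate 1) and 78 (without atracurium replicate 2) with 1 sample left out, with 18 and 20 without water vehicle replicates 2 and 3. After removal of the length trend, also added after seeing the data, 15 of 43 called genes were lower with atracurium, against 6 of 31 in the main comparison. This count was 77 of 139 with sample weights, 68 of 134 without atracurium replicates 2 and 4, 40 of 78 without atracurium replicate 2 and 1 of 20 without water vehicle replicate 3. The causes were not tested.

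With the replicate number as a block, 20 genes were called, and *swt-3* had a log2 fold change of −0.78. Samples of the same number did not deviate together (correlations of −0.06 to 0.04), and not every sample correlated best with its own number. The values thus showed no pairing by number, and whether samples of the same number were handled together was not tested. By coding length in place of exonic length, *swt-3* had 22.9 CPM per kb with atracurium and 39.6 in the water vehicle. *swt-1* stood above *swt-6* in the water vehicle, and there *swt-3* no longer overlapped with *swt-7*. With atracurium the order became *swt-4*, *swt-1* and *swt-6*, at 14.2, 14.1 and 11.7 CPM per kb, with ranges that overlapped. Depth limited *swt-5* most among the members, with 0 to 18 reads per sample. Counting error on the log2 scale also reached 0.097 for *swt-6* and 0.061 for *swt-7*, whose water vehicle SDs were 0.205 and 0.074. The part of counting error in the spread of these genes was not tested.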
